A study of Mus musculus with 3 samples.

Results

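The insulin-like growth factor (IGF) genes described here are 10 of the 32285 genes counted in single cells of the mouse diaphragm. They are the ligands Igf1 and Igf2, the receptors Igf1r and Igf2r, and the genes Igfbp2, Igfbp3, Igfbp4, Igfbp5, Igfbp6 and Igfbp7 of the binding proteins. They were chosen by measured values, since their levels differed by cell class, by state of the fibro-adipogenic progenitors (FAPs) and by library, so those levels are given as descriptions with no test. IGF1 and IGF2 are secreted peptides that signal through the receptor tyrosine kinase IGF1R, and the mannose-6-phosphate receptor IGF2R takes up IGF2 and carries it to the lysosome. The binding proteins hold the ligands in fluid or matrix and either shield them from the receptor or deliver them, while IGFBP7 binds them only weakly. In skeletal muscle the IGF axis is known for fibre growth and for the proliferation and differentiation of muscle stem cells (MuSCs, or satellite cells), and the stromal FAPs between the fibres are a known source of IGF1.

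The diaphragms came from male mice after 6 months on their diets. One library was made from C57Bl/6J wild-type mice on control diet (WT CD), one from C57Bl/6J wild-type mice on a high-fat diet with 45% of its energy from lipid (WT HFD), and one from mice with a Thbs1 knockout allele, strain B6.129S2-Thbs1tm1Hyn/J, on the same high-fat diet (KO HFD). Each library pooled a pair of mice, so there was 1 library per group and no replicate. The mutant strain carries a constitutive allele whose flanking DNA comes from another strain, and no single-cell library of the knockout on control diet was analysed here. The 3 libraries held 4132 (WT CD), 3774 (WT HFD) and 4369 (KO HFD) barcodes, with 34312860, 31967976 and 36478779 unique molecular identifiers (UMIs, one per counted RNA molecule) and medians of 7632.5, 8041.5 and 7554 UMIs per barcode. At most 7 barcodes were shared by any 2 libraries. A level is given as CPM, or a gene's UMIs in all cells of a class in 1 library per 1000000 UMIs of those cells. Every UMI marks the 3′ end of 1 molecule, so a CPM needs no correction for transcript length, and an interval in brackets is a 95% exact interval that covers counting error only, not the spread between mice. A level can differ because fewer cells hold the RNA or because each holds less of it, so the share of cells with a UMI is given beside the main results.

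The promoters of 4 members are shown because these genes carried the differences between libraries described below. Igfbp3 was lower in FAPs of the high-fat libraries, and Igf1, Igfbp4 and Igfbp5 differed between libraries in MuSC-like cells. Each sequence is the 250 bases before the annotated start in the RefSeq table of build GRCm38.p6, 5′ to 3′ on the strand of the gene, with capitals for any match to the letters of a TATA box (TATAAA), a GC box (GGGCGG) or a CAAT box (CCAAT) on either strand. The Igfbp3 window is chr11:7213924-7214173 on the minus strand, the Igf1 window is chr10:87860861-87861110 on the plus strand, the Igfbp4 window is chr11:99040994-99041243 on the plus strand, and the Igfbp5 window is chr1:72874866-72875115 on the minus strand.
Igfbp3 promoter: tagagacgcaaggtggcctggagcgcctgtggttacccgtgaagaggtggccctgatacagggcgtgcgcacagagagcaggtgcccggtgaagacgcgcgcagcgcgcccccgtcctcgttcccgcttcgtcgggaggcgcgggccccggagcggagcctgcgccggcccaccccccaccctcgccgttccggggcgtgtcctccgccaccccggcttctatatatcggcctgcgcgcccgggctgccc
Igf1 promoter: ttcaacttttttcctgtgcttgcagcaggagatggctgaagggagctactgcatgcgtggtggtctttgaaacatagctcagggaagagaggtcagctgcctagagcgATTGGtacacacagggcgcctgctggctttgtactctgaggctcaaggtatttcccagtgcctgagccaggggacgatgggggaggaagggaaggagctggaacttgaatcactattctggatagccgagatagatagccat
Igfbp4 promoter: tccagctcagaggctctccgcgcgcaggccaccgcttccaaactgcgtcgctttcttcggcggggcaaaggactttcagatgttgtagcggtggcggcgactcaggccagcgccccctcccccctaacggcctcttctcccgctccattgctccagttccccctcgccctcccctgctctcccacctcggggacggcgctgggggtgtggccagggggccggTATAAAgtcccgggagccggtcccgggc
Igfbp5 promoter: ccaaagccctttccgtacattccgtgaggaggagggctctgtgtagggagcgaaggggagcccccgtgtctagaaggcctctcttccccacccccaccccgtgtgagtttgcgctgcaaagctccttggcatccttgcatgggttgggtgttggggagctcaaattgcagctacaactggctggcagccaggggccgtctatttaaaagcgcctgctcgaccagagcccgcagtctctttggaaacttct

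Igfbp3 and Igfbp5 had none of the 3 motifs in this window, Igf1 had 1 match to CCAAT (on the reverse strand, printed as ATTGG), and Igfbp4 had 1 TATAAA close to the start. All 10 members were found in the table, with 14 windows in all because Igf2 has 4 annotated starts and Igfbp2 has 2. TATAAA stood in 2 of the 14 windows and in 12.4% of 32851 windows of the same length, GGGCGG in 6 of 14 and in 32.7%, and CCAAT in 3 of 14 and in 33.8%. The GC content of the members' windows had a median of 66.6%, against 52.4% over all windows. These are matches of letters, not sites of binding.

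On the GENCODE annotation of the same build, Igfbp3 lies at chr11:7206086-7213923 and Igfbp4 at chr11:99041244-99054392, Igf1 at chr10:87858265-87937042 and Igfbp5 at chr1:72857932-72874884, next to Igfbp2 at chr1:72824503-72852474. Igf2 (chr7:142650766-142666816) overlaps its antisense gene Igf2os and, on its own strand, Gm49394 and Mir483, which have no row in the count table, Igf1 overlaps Igf1os, Igf2r (chr17:12682406-12769664) overlaps Airn, and Igfbp7 (chr5:77349240-77408041) overlaps Polr2b on the opposite strand. The counting method's use of strand is not given in the sources used here, so reads from the paired genes may not be fully told apart. Igf1r (chr7:67952827-68233668) and Igfbp6 (chr15:102144362-102149511) overlap no other annotated gene.

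Cells were clustered without these genes and without 34 further genes of the IGF axis, and the 35 clusters were named by marker genes. FAP-like cells were 6649 of 12275 barcodes (54.2%), followed by MuSC-like cells (1168), macrophage-like cells (1089), blood endothelial-like cells (713), B cell-like cells (706), lymphatic endothelial-like cells (273) and mesothelial-like cells (177, the lining of the muscle's surface). The names rest on such markers, so their levels describe the classes: Pax7, the satellite cell transcription factor, was at 272, 308 and 270 CPM in MuSC-like cells of WT CD, WT HFD and KO HFD and at 0.2 CPM or below in FAP-like cells, and Dcn, a matrix proteoglycan of fibroblasts, was at 16428, 14257 and 15754 CPM in FAP-like cells. The cluster named tenocyte-like was small and mixed: 26 of its 60 cells held both Pax7 and Dcn UMIs and 26 were called doublets, so its levels are not used below.

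The knockout was checked first. Thbs1 stood at 192 CPM in FAP-like cells of WT CD, 232 CPM in WT HFD and 232 CPM in KO HFD, so its 3′ UMIs were not lower in the library labelled KO HFD. A count at the 3′ end does not check a disruption elsewhere in the gene, and the labels do not say which part is altered. Thbs1 was lower in KO HFD in macrophage-like cells, at 75.1 CPM against 354 CPM in WT HFD and 113 CPM in WT CD.

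B cell-like cells, which should lack stromal transcripts, gave the size of the background of RNA from other cells. Dcn was at 485, 290 and 884 CPM there (WT CD, WT HFD, KO HFD), or 2.95%, 2.04% and 5.61% of its level in FAP-like cells of the same library. The class was not made up alike, since a plasma cell cluster led by Jchain gave 101 of its 437 cells in WT CD but 7 of 163 and 11 of 106 in the others, and without that cluster Dcn was at 3.38%, 2.29% and 5.47%. Igfbp4 in B cell-like cells was at 4.08%, 4.16% and 5.08% of its FAP level, and Igfbp6 at 2.25%, 1.71% and 4.80%. A UMI of Igfbp4 was found in 6.18%, 4.29% and 12.3% of B cell-like cells. Whether such UMIs came from free RNA or from a few mixed droplets was not tested. Levels at such a share of the FAP level are read as background. MuSC-like cells held less of it, with Dcn at 0.515%, 0.79% and 0.922% of the FAP level.

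Among the ligands, Igf1 was highest in FAP-like cells in all 3 libraries, at 433 [423, 442] CPM in WT CD, 404 [395, 413] in WT HFD and 466 [457, 475] in KO HFD. Under cell-by-cell gating Igf1 was no longer highest in FAP-like cells. FAP-like cells held 94.6%, 89.2% and 89.7% of all Igf1 UMIs of these libraries, and a UMI of Igf1 was found in 76.4%, 78.2% and 79.0% of them. Macrophage-like cells followed with 56.5, 121 and 104 CPM, and mesothelial-like cells with 84.1, 85.4 and 88.0 CPM, and the ranges of these 2 classes overlapped. In B cell-like cells Igf1 was at 16.7, 17.8 and 37.6 CPM.

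Igf2, a paternally expressed gene that is abundant before birth, was distributed differently. Its highest means were in the cells of vessel walls, at 118, 137 and 199 CPM in mural-like cells, 181, 128 and 142 CPM in lymphatic-like cells and 127, 105 and 149 CPM in endothelial-like cells, and these 3 classes overlapped. Myofiber-like cells of WT CD were higher still at 217 CPM, but from 4 UMIs in 5 cells, and those of the high-fat libraries were at 18.0 and 26.6 CPM. FAP-like cells were at 11.3, 10.0 and 13.6 CPM, and macrophage-like cells at 0.72, 1.13 and 2.20 CPM. Igf2 was concentrated in 1 of the 2 clusters named endothelial-like: the cluster led by Gja5 and Sema3g, genes of arterial endothelium, had 189, 187 and 241 CPM, and the cluster led by Car4 and Gpihbp1, genes of muscle capillaries, had 5.45 CPM in WT CD, 2.31 in WT HFD and 0 in KO HFD, where a count of 0 allows up to 9.17 CPM. The unnamed cluster led by Vwf and Plvap, in which the endothelial markers were also detected, lay between them in means, at 94.1, 16.0 and 50.7 CPM from 10, 4 and 10 UMIs.

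The receptors varied less between classes. Igf1r was at 52.2, 62.0 and 57.6 CPM in FAP-like cells and at 135, 134 and 120 CPM in MuSC-like cells, so each MuSC-like value lay above every FAP-like value. The highest mean for Igf1r was in neutrophil-like cells (322, 79.6 and 242 CPM), which were 57 cells with medians of 2279, 1854 and 2004 UMIs, and their range overlapped that of MuSC-like cells. Igf2r was at 118, 150 and 129 CPM in FAP-like cells and at 99.4, 121 and 107 CPM in MuSC-like cells, which overlapped, and at 14.0, 23.7 and 23.5 CPM in macrophage-like cells. Only Igf1 and Igf2r of the 10 members had their highest mean in FAP-like cells.

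The binding proteins fell into stromal and vascular patterns. Igfbp4 and Igfbp6 were high in both FAP-like and mesothelial-like cells. Igfbp4 was at 1347, 1411 and 1501 CPM in FAP-like cells and at 1628, 1484 and 1610 CPM in mesothelial-like cells, so these classes overlapped, and it was found in 97.6%, 98.9% and 98.3% of FAP-like cells. Igfbp6, which prefers IGF2 as its ligand, was at 3761, 4799 and 5100 CPM in mesothelial-like cells, above the 2777, 2480 and 2211 CPM of FAP-like cells in every library.

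Igfbp5, a binding protein that adheres to matrix, had the widest span. Mesothelial-like cells were highest with 3330, 7789 and 6725 CPM, lymphatic-like cells had 1553, 3115 and 2785 CPM, mural-like cells 901, 1147 and 1870 CPM, FAP-like cells 606, 727 and 514 CPM and MuSC-like cells 704, 335 and 452 CPM. The mesothelial range did not overlap the lymphatic range, while the lymphatic and mural ranges overlapped. Endothelial-like cells of the blood vessels had 31.2, 43.0 and 132 CPM.

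Igfbp7, the low-affinity member, was highest in mural-like cells at 2586, 2917 and 2908 CPM, followed by endothelial-like cells at 2333, 1967 and 1816 CPM and FAP-like cells at 1606, 1565 and 1700 CPM, and each of these ranges was clear of the next. Within the blood endothelium its order was opposite to that of Igf2: the Car4 cluster had 4073, 2820 and 2939 CPM and the Gja5 cluster 1447, 1288 and 1120 CPM. Igfbp4 showed the Igf2 order there, with 270, 342 and 286 CPM in the Gja5 cluster against 2.72, 4.62 and 42.8 CPM in the Car4 cluster. Igfbp3, the main carrier of IGF1 in serum, was highest in endothelial-like cells at 183, 175 and 152 CPM, and FAP-like cells had 165, 70.4 and 90.1 CPM. Igfbp2 was near absent, with 3, 11 and 6 UMIs in the whole of WT CD, WT HFD and KO HFD, of which 2, 6 and 4 were in mesothelial-like cells. Igfbp1, the liver's binding protein and not a member here, had 0 UMIs in each of the 11 classes in which it was looked up.

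**Figure D1:**
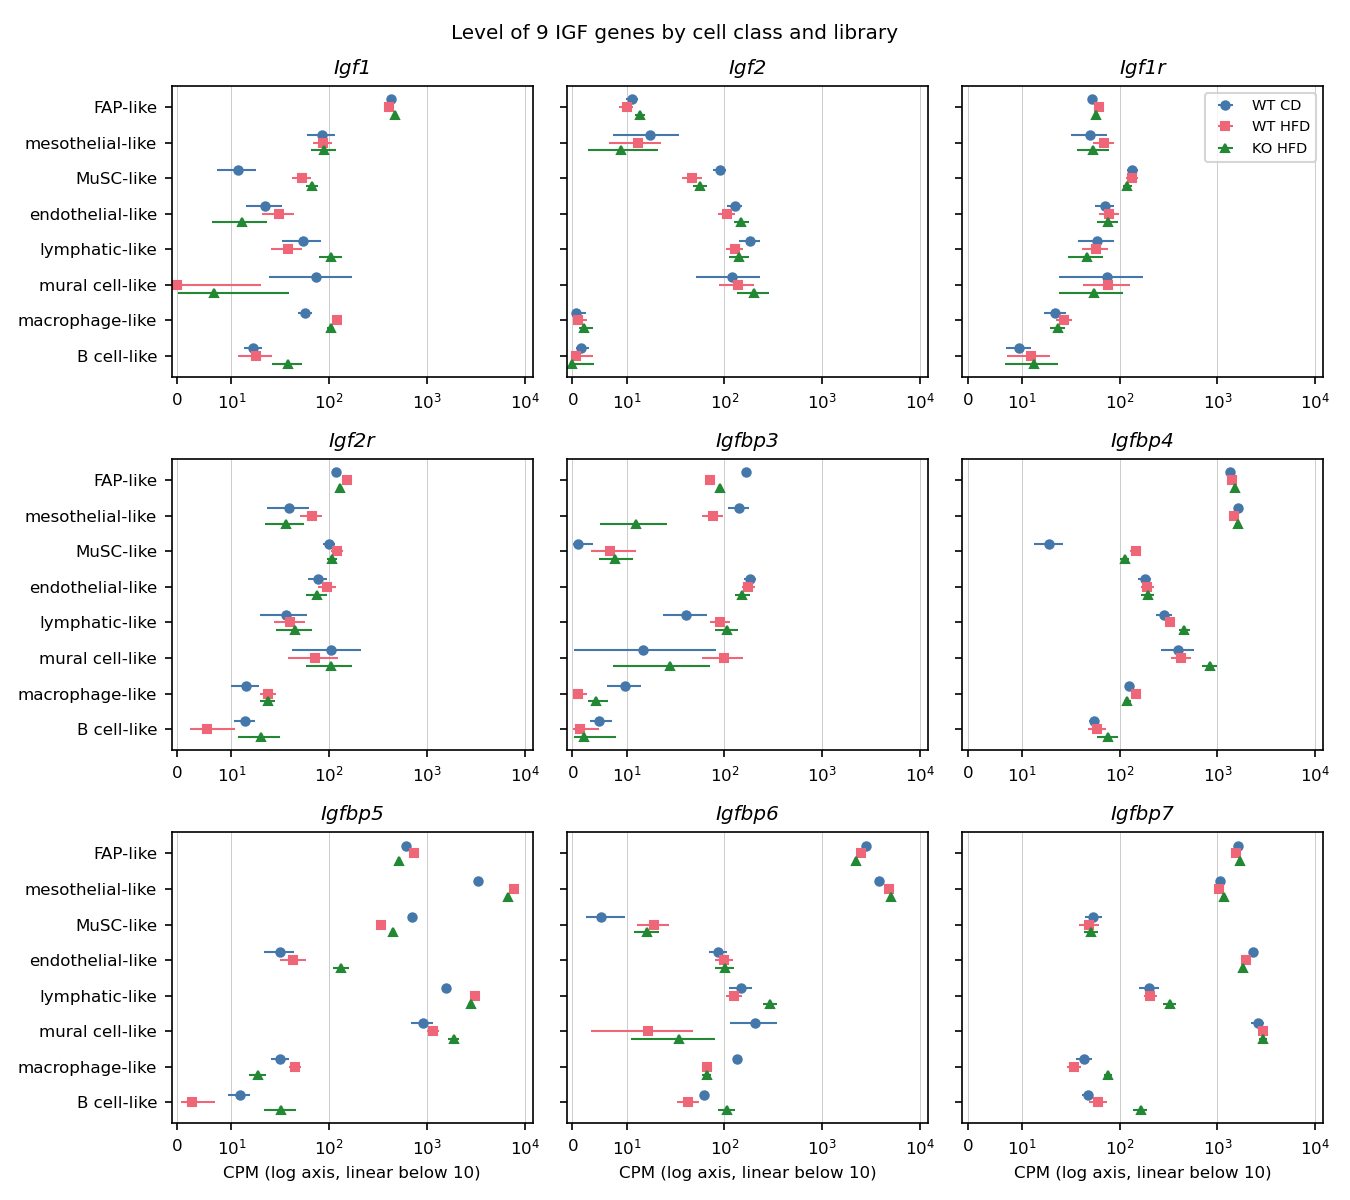
Level in CPM (horizontal, logarithmic above 10 and linear below) of 9 members in 8 cell classes, with 1 point per library and bars for the 95% counting interval. Igf1 sits highest in FAP-like cells, Igf2 in mural-like, lymphatic-like and endothelial-like cells, Igfbp5 in mesothelial-like cells (3330 to 7789 CPM) and Igfbp7 in mural-like cells.

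By the likeness of their log2(CPM + 1) profiles over 16 class sums of at least 100 cells (Pearson's r across 11094 genes, with the same classes repeated over libraries, so given only as a description), Igfbp6 was nearest to the stromal matrix genes Dcn (r = 0.988), Lum (0.987) and Col1a2 (0.987). Igfbp7 was nearest to Heg1, a receptor of vascular endothelium (0.984), Igf1 to F3, the gene of tissue factor (0.953), Lrp1 (0.935) and Mpc2 (0.930), and Igfbp3 to Tmem204 (0.953). The 16 sums held no mesothelial-like or mural-like cells, the classes in which Igfbp6 and Igfbp7 were highest. Lymphatic-like cells entered from WT HFD only. In mesothelial-like cells Dcn was at 57.7%, 72.2% and 58.6% of its FAP level (WT CD, WT HFD, KO HFD). Igfbp6 was above its FAP level there, at 135%, 193.5% and 231%, so it departed from Dcn in this class.

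FAP-like cells were divided into 16 clusters, which were assigned to 7 states named by pairs or triplets of marker genes, with 754 cells left unnamed. The states were not uniform. Of the 1667 cells of the Dpp4 Sema3c state, 238 formed a cluster led by the interferon genes Ifit1 and Isg15 and by Has1. No cluster of this state had Dpp4 or Sema3c among its 10 leading genes. The 741 cells of the Agt Ptx3 Has1 state likewise had none of their name genes there, as did 622 of the 842 cells of the Gdf10 Rbp4 Penk state. Of the 825 cells of the Sfrp4 Spon2 state, 690 formed a cluster whose leading genes held Dpp4 and Thbs4 but neither Sfrp4 nor Spon2. The states differed in IGF genes in all 3 libraries. Their levels depended on how the states were drawn, as described with the processing alternatives below. Igf1 had its highest means in the Agt Ptx3 Has1 state (880, 716 and 703 CPM in WT CD, WT HFD and KO HFD) and in the Fmod Sfrp2 Tnmd state (637, 609 and 769 CPM), where the cluster led by Igfbp3 was at 1003, 1029 and 1083 CPM and the other, larger cluster at 402, 453 and 528 CPM. The Sfrp4 Spon2 state followed at 590 to 621 CPM, a range that overlapped that of the Fmod Sfrp2 Tnmd state. Its cluster led by Moxd1 was at 832, 765 and 715 CPM. Igf1 was lowest in the Dpp4 Sema3c state (172, 189 and 223 CPM), whose marker DPP4 is known from progenitor-like fibroblasts. The values of the Dpp4 Sema3c state lay below those of the Agt Ptx3 Has1 state in every library, as did those of its Ifit1 cluster (211, 339 and 307 CPM).

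Igfbp5 and Igfbp6 were higher in the Dpp4 Sema3c state than in the Agt Ptx3 Has1 state. The former had 1106, 1295 and 1018 CPM of Igfbp5, and the latter had 322, 314 and 271 CPM. Within the Dpp4 Sema3c state Igfbp5 was highest in the cluster led by Krtdap and Cmah (2205, 2328 and 1872 CPM), and in the Ifit1 cluster it was at 270, 187 and 373 CPM, a range that overlapped that of the Agt Ptx3 Has1 state. Igfbp6 was at 3265, 3056 and 2902 CPM in the Dpp4 Sema3c state and at 1253, 1258 and 1317 CPM in the Agt Ptx3 Has1 state, and the highest mean was in the Sfrp4 Spon2 state (3956, 3373 and 3021 CPM), whose range overlapped that of the Fmod Sfrp2 Tnmd state. Igfbp7 ran the other way, with 943, 957 and 1090 CPM in the Dpp4 Sema3c state against 2740, 2590 and 3384 CPM in the Dio2 Pthlh Col8a1 state, which held 89 cells. The few Igf2 UMIs of FAP-like cells were most frequent in the Cxcl14 Mme state, at 30.2, 28.0 and 34.5 CPM.

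Igfbp3 was high in a subset of the states. In WT CD it was at 402 CPM in the Fmod Sfrp2 Tnmd state, 366 in the Agt Ptx3 Has1 state and 215 in the Sfrp4 Spon2 state, and at 65.2 CPM or below in the other 4 named states. One of the 2 clusters within the Fmod Sfrp2 Tnmd state was led by Igfbp3 itself, at 676, 712 and 639 CPM, although the gene had been left out of the clustering.

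WT HFD was compared with WT CD, the question being the effect of the high-fat diet. With 1 library a group, diet cannot be told apart from the mice or the library. Of the 10 members, 9 reached 10 CPM in 1 of the 2 libraries (Igfbp2 did not), and 1 differed by 1.5-fold or more: Igfbp3 was lower on the high-fat diet. Of all 8100 genes at that level, 1.53% differed by as much in either direction. The log2 ratio of Igfbp3 was -1.23 [-1.32, -1.14], from 3268 and 1321 UMIs. The medians of the log2 ratios were -0.04 over the 9 members and 0.08 over all 8100 genes.

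Fewer FAP-like cells held an Igfbp3 UMI on the high-fat diet. The share was 23.8% in WT CD, 11.9% in WT HFD and 14.9% in KO HFD, and it was 17.7% [16.1, 19.4], 7.93% [6.77, 9.22] and 9.89% [8.72, 11.2] after every cell had been thinned to 3000 UMIs, which left out 70, 37 and 57 shallower cells. In B cell-like cells, which should lack the gene, the thinned share was 0.708%, 0 of 151 cells and 1.12%. The median depths of FAP-like cells were 8421, 9147 and 8374.5 UMIs, and those of B cell-like cells 9356, 7382 and 5303.5.

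Igfbp3 was lower in most states, but by different amounts. It was lower on the high-fat diet in the Agt Ptx3 Has1 state (366 and 103 CPM, log2 ratio -1.82 [-2.04, -1.61]), in the Dpp4 Sema3c state (65.2 and 13.3 CPM, -2.29 [-2.65, -1.95]) and in the Sfrp4 Spon2 state (215 and 87.4 CPM, -1.30 [-1.55, -1.06]). Within the Dpp4 Sema3c state the Krtdap cluster was at 159 and 27.1 CPM, and the Ifit1 cluster held 4 and 13 UMIs. The Gdf10 Rbp4 Penk and Cxcl14 Mme states were also lower, at 42.3 and 12.2 CPM and at 21.9 and 2.33 CPM. In the Fmod Sfrp2 Tnmd state, where the fibroblast genes of tendon are expressed, the values were 402 and 336 CPM with a log2 ratio of -0.26 [-0.40, -0.13], short of 1.5-fold. Neither cluster of this state differed by 1.5-fold: the one led by Igfbp3 was at 676 and 712 CPM with 144 and 73 cells, and the other at 226 and 195.3 CPM with 176 and 162 cells, so that the former was a smaller part of the state in WT HFD. The Dio2 Pthlh Col8a1 state had 3 and 5 UMIs. That the states differ in this ratio was not tested, since no state had a replicate.

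The other members stayed within 1.5-fold in FAPs. Igf2r had a log2 ratio of 0.35 [0.27, 0.43], Igfbp5 of 0.26 [0.23, 0.30], Igf1r of 0.25 [0.13, 0.37], Igfbp6 of -0.16 [-0.18, -0.15], Igf1 of -0.10 [-0.14, -0.05], Igfbp4 of 0.07 [0.04, 0.09] and Igfbp7 of -0.04 [-0.06, -0.01]. Igf2 was at -0.18 [-0.46, 0.11], so that its interval held 0. Within states, Igfbp5 went in both directions: it was at 523 and 850 CPM in the Cxcl14 Mme state and at 389 and 206 CPM in the Fmod Sfrp2 Tnmd state. Within the latter the cluster led by Igfbp3 went the other way, at 133 and 183 CPM, while the other cluster was at 553 and 215 CPM.

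Stress transcripts also differed between these libraries, since Hspa1a, a heat shock gene induced by tissue dissociation, was at 321, 158 and 226 CPM in FAP-like cells of WT CD, WT HFD and KO HFD, while the early gene Fos was at 4018, 3965 and 4640 CPM. Their part in the Igfbp3 result was not tested. A pair of FAP clusters was led by genes that also mark tenocytes (Tnmd, Thbs4), and without their cells Igfbp3 in FAPs had a log2 ratio of -1.82 for WT HFD over WT CD.

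KO HFD was compared with WT HFD, the question being the role of Thbs1 under the high-fat diet. With 1 library a group, genotype cannot be told apart from the mice or the library. None of the 9 members at 10 CPM or more differed by 1.5-fold in FAPs, against 0.84% of all 8093 genes. Igfbp5 was nearest, at 514 CPM in KO HFD and 727 CPM in WT HFD (log2 ratio -0.50 [-0.54, -0.46]), followed by Igf2 (13.6 and 10.0 CPM, 0.44 [0.17, 0.71]) and Igfbp3 (90.1 and 70.4 CPM, 0.35 [0.25, 0.46]). Without the 2 clusters led by tenocyte genes Igfbp5 had a log2 ratio of -0.62, past 1.5-fold. Igfbp3 in the Agt Ptx3 Has1 state was lower still in KO HFD, at 63.0 CPM against 103 CPM (-0.72 [-0.99, -0.44]), and in the Gdf10 Rbp4 Penk state it was higher, at 34.0 CPM against 12.2 CPM (1.48 [0.78, 2.22]). Both comparisons share the WT HFD library, so their ratios are not independent.

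**Figure D2:**
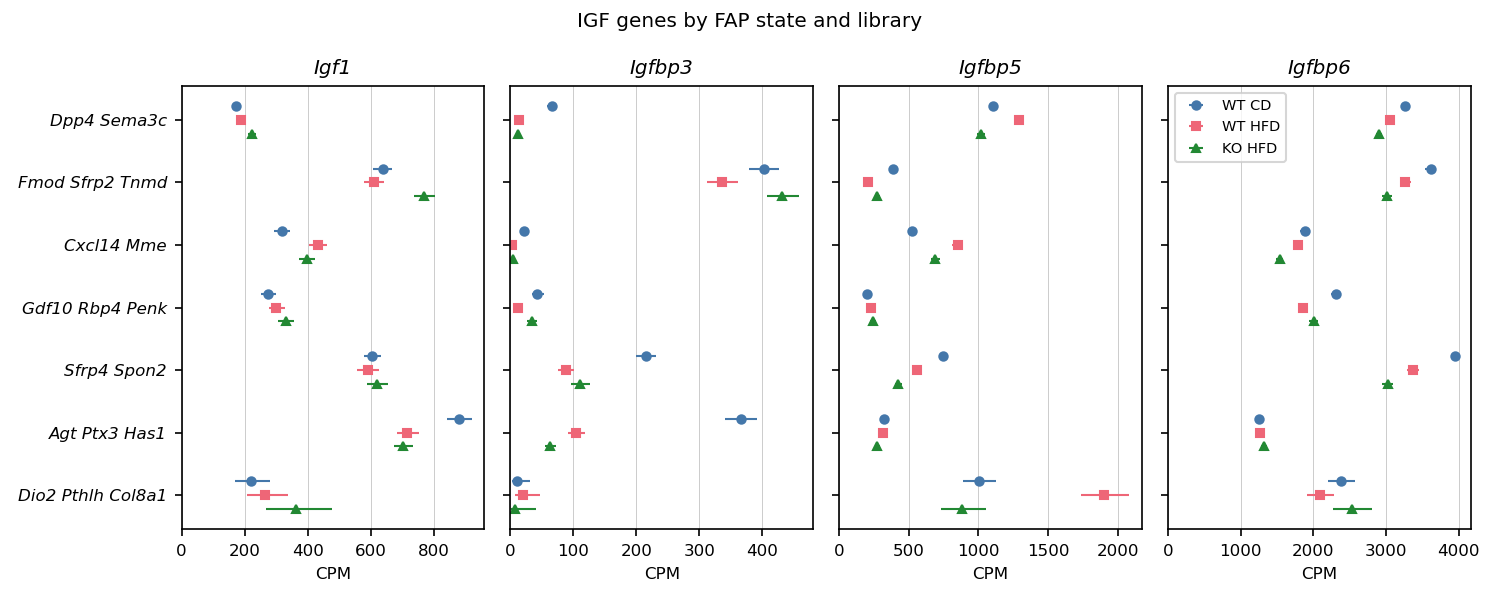
Level in CPM (horizontal, from 0) of Igf1, Igfbp3, Igfbp5 and Igfbp6 in 7 FAP states, with 1 point per library and bars for the 95% counting interval. Igfbp3 of WT CD lies to the right of both high-fat libraries in the Agt Ptx3 Has1, Sfrp4 Spon2 and Dpp4 Sema3c states, and in the Fmod Sfrp2 Tnmd state the 3 libraries lie between 336 and 432 CPM.

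In MuSC-like cells the ligand and binding protein genes differed in both directions on the high-fat diet. Of 8 members at 10 CPM or more, 5 differed by 1.5-fold or more between WT HFD and WT CD, with Igf1, Igfbp4 and Igfbp6 higher and Igf2 and Igfbp5 lower. The background was wide in these cells, since 22.9% of 7216 genes differed by as much, 1307 of them higher and 347 lower. Igf1 was at 11.6 [7.29, 17.6] CPM in WT CD, 52.8 [42.1, 65.5] in WT HFD and 66.6 [57.6, 76.5] in KO HFD, from 22, 83 and 197 UMIs. Igfbp4 was at 19 [13.3, 26.3], 146 [127, 166] and 113 [101, 126] CPM, from 36, 229 and 334 UMIs. For both genes the WT CD library was low and the 2 high-fat libraries were high.

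The log2 ratio of WT HFD over WT CD was 2.18 [1.49, 2.93] for Igf1 and 2.94 [2.42, 3.49] for Igfbp4. It was -0.94 [-1.36, -0.54] for Igf2 (89.3 and 46.4 CPM) and -1.07 [-1.22, -0.92] for Igfbp5 (704 and 335 CPM), a gene that is induced as myoblasts differentiate. Igf1r, by contrast, was at 135 and 134 CPM (-0.01 [-0.28, 0.26]), Igf2r at 0.28 [-0.02, 0.58] and Igfbp7 at -0.14 [-0.58, 0.30]. Igfbp6 rested on 10 UMIs in 10 cells and 30 UMIs in 7 cells. It stood at 0.19%, 0.77% and 0.733% of its FAP level (WT CD, WT HFD, KO HFD), below the shares of Dcn given above, and is read as background.

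More cells of the high-fat libraries held Igf1 and Igfbp4. A UMI of Igf1 was found in 3.37%, 18.7% and 22.3% of MuSC-like cells (WT CD, WT HFD, KO HFD) and a UMI of Igfbp4 in 7.47%, 42.8% and 35.8%. Their median depths were 4418, 5182 and 5577 UMIs. With every cell thinned to 3000 UMIs, which left out 74, 14 and 14 cells, the shares for Igf1 were 2.05% [0.829, 4.18], 12.9% [9.09, 17.5] and 14.5% [11.4, 18.1], and those for Igfbp4 5.87% [3.62, 8.91], 34.5% [28.8, 40.5] and 23.6% [19.8, 27.8]. In B cell-like cells thinned alike they were 2.12%, 2.65% and 3.37% for Igf1 and 3.54%, 3.31% and 8.99% for Igfbp4. In WT CD the MuSC-like share of Igf1 was thus at the level of B cell-like cells, and in both high-fat libraries it was above it. MuSC-like cells of WT CD held less Dcn than that class (0.515% against 2.95% of the FAP level). A share equal to that of B cell-like cells therefore does not place Igf1 at background there. The shares for Igf2 were 24.9%, 11.0% and 15.2%, and those for Igfbp5 62.8%, 42.8% and 48.4%.

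In MuSC-like cells Dcn was at 84.6, 113 and 145 CPM (WT CD, WT HFD, KO HFD). In WT CD this was 0.515% of the FAP level, where Igfbp4 was at 1.41% and Igf1 at 2.69% of theirs. In WT HFD Dcn was at 0.79%, Igfbp4 at 10.3% and Igf1 at 13.1%. The source of these UMIs was not tested. Among the MuSC-like cells with no UMI of Dcn, Col1a1, Lyz2 or Myog (331 in WT CD and 216 in WT HFD), Igf1 was at 10.8 and 43.6 CPM (2.01 [1.18, 2.92]), Igfbp4 at 19 and 150 CPM (2.99 [2.41, 3.62]) and Igfbp5 at 733 and 377 CPM (-0.96 [-1.12, -0.80]), while Igfbp6 had 6 UMIs in either library. Myog, a gene of differentiating myoblasts, was at 0.529, 42.6 and 18.9 CPM, and Hspa1a at 1027, 477 and 497 CPM, and their part in the ratios was not tested.

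The ratios depended on which cells were placed in the class. With all variable genes used in clustering, or at a Leiden resolution of 1.5, the MuSC-like class took up cells from the mixed cluster named tenocyte-like. These were 14 or 15 cells of WT CD, with a median of at least 13900 UMIs, 7 of WT HFD and 15 of KO HFD. The log2 ratio of WT HFD over WT CD fell to 0.49 or 0.44 for Igfbp4 and to 0.73 or 0.67 for Igf1. In the first case the 14 cells of WT CD held 244 UMIs of Igfbp4 and 2163 of Dcn, against 36 UMIs of Igfbp4 in the 415 others. The 8 cells added in WT HFD, 7 of them from that cluster, held 86 UMIs of Igfbp4 and 1196 of Dcn. The MuSC-like cells of WT HFD given above held 229 UMIs of Igfbp4.

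Between KO HFD and WT HFD no member passed 1.5-fold in MuSC-like cells, against 11% of 7235 genes. Igfbp5 was at 452 and 335 CPM (0.43 [0.29, 0.58]), Igfbp4 at 113 and 146 CPM (-0.37 [-0.62, -0.12]) and Igf1 at 66.6 and 52.8 CPM (0.33 [-0.04, 0.72]).

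**Figure D3:**
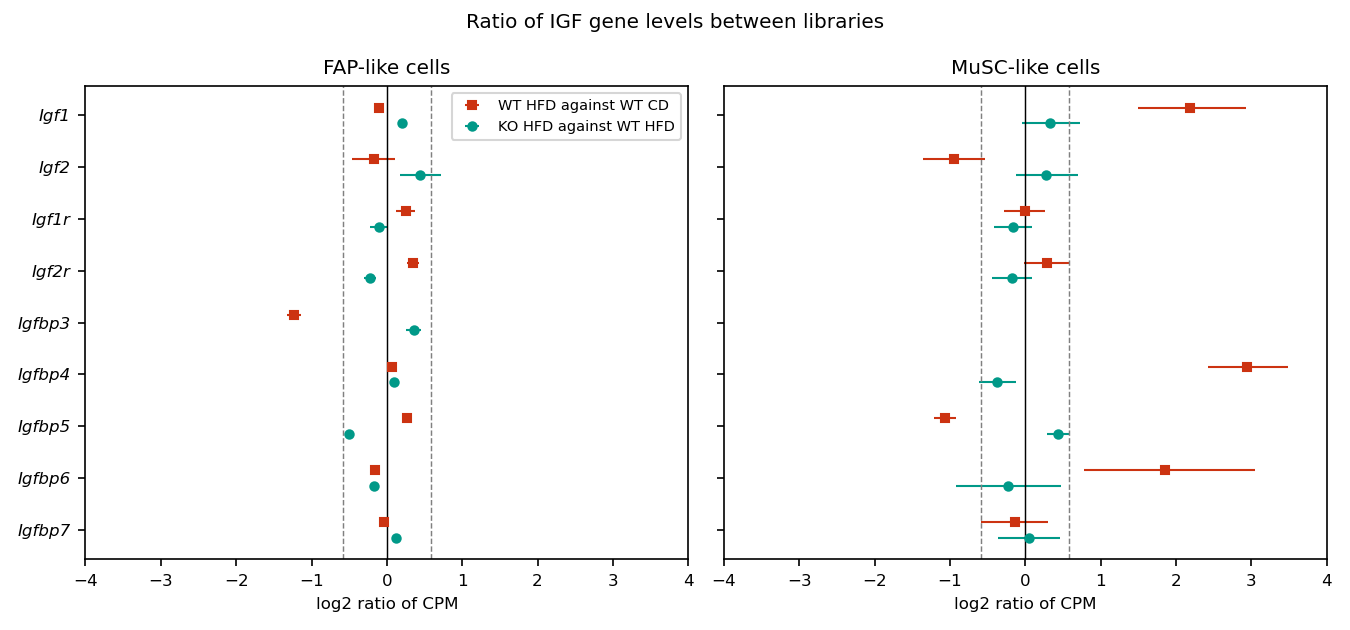
Log2 ratio of CPM (horizontal) of WT HFD over WT CD (red squares) and of KO HFD over WT HFD (teal circles) for members at 10 CPM or more in FAP-like and MuSC-like cells, with 95% counting intervals and dashed lines at 1.5-fold. In FAP-like cells Igfbp3 alone lies beyond a dashed line, and in MuSC-like cells Igf1, Igfbp4 and Igfbp6 lie to the right and Igf2 and Igfbp5 to the left on the high-fat diet.

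**Figure D4:**
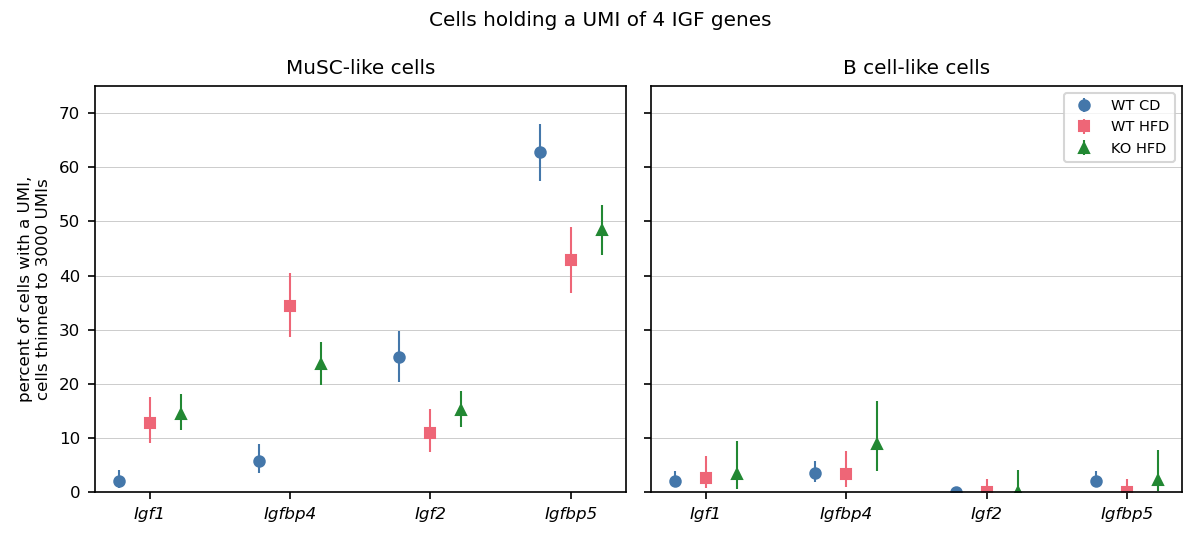
Percent of cells with a UMI (vertical, from 0) of 4 members after thinning to 3000 UMIs, in MuSC-like cells and in B cell-like cells as the background class, with 1 point per library and 95% exact binomial intervals. Igf1 and Igfbp4 of WT CD (2.05% and 5.87%) lie below both high-fat libraries in MuSC-like cells, and Igf2 and Igfbp5 lie above them.

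In macrophage-like cells, which release IGF1 during muscle repair, Igf1 was at 56.5 [48.0, 66.1] CPM in WT CD, 121 [111, 132] in WT HFD and 104 [95.7, 113] in KO HFD, and the 2 high-fat libraries lay above WT CD. Of 7 members at 10 CPM or more, 3 passed 1.5-fold between WT HFD and WT CD, Igf1 (log2 ratio 1.10 [0.84, 1.36]) and Igf2r higher and Igfbp6 lower, against 14.2% of 7293 genes. The class was not made up alike: the cluster led by Folr2 and Cd163, genes of resident macrophages, held 99, 244 and 218 cells of the libraries, the cluster led by Mmp12 held 124, 111 and 215, and the cluster led by Saa3 and Alox15 held 8, 56 and 14. Within the Folr2 cluster Igf1 was at 143, 238 and 239 CPM (WT HFD over WT CD 0.73 [0.42, 1.05]), and within the Mmp12 cluster at 24.3, 44.8 and 44.4 CPM (0.88 [0.34, 1.44]). Within the Saa3 cluster it was at 38.5, 20.5 and 14.1 CPM, from 4, 18 and 3 UMIs, with a ratio of the opposite sign whose interval held 0 (-0.91 [-2.51, 1.11]). Igfbp6 in macrophage-like cells was at 4.84%, 2.70% and 2.98% of its FAP level, beside 3.45%, 3.36% and 2.81% for Dcn. Its 373 UMIs in WT CD were found in 8.66% of the cells, and their source was not tested. Between KO HFD and WT HFD, 2 of 7 members passed, Igfbp7 higher (76.4 and 34.4 CPM) and Igfbp5 lower (18.5 and 44.8 CPM), against 8.33% of 7201 genes, and both were at 2.20% to 6.15% of their FAP levels. Igfbp7 was higher in the Mmp12 cluster (98.7 and 36.6 CPM, from 20 and 9 cells with a UMI) and not in the Folr2 cluster (39.2 and 38.4 CPM). In the Saa3 cluster it was at 4.69 and 21.6 CPM, from 1 and 19 UMIs, and the interval of this ratio held 0. The share of macrophage-like cells with an Igfbp7 UMI was 7.16% and 7.06%.

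Mesothelial-like and lymphatic-like cells carried Igfbp5 differences of the opposite sign to that of MuSC-like cells. In mesothelial-like cells (40, 85 and 52 cells) Igfbp5 was at 3330 [3166, 3500] CPM in WT CD, 7789 [7611, 7971] in WT HFD and 6725 [6512, 6944] in KO HFD, with a log2 ratio of 1.23 [1.15, 1.31] for WT HFD over WT CD and of -0.21 [-0.27, -0.15] for KO HFD over WT HFD. Igfbp5 UMIs were found in 100%, 96.5% and 96.2% of these cells. In lymphatic-like cells (66, 127 and 80 cells) it was at 1553 [1432, 1681], 3115 [2996, 3237] and 2785 [2647, 2930] CPM, a log2 ratio of 1.0 [0.88, 1.13] for WT HFD over WT CD, and 75.8%, 77.2% and 77.5% of cells held a UMI. In both classes the 2 high-fat libraries lay above WT CD.

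These small classes had a wide background. Between WT HFD and WT CD 31.7% of 9051 genes passed 1.5-fold in mesothelial-like cells, where 3 of 9 members did, and 33.9% of 8660 in lymphatic-like cells, where 2 of 9 did. Igfbp3 was at 140, 75.7 and 12.6 CPM in mesothelial-like cells, from 65, 70 and 7 UMIs, and at 40.8, 90.5 and 105 CPM in lymphatic-like cells. Between KO HFD and WT HFD 27.4% of 8977 genes passed in mesothelial-like cells with 2 of 9 members (Igf2r and Igfbp3, both lower), and 30.7% of 8526 in lymphatic-like cells with 3 of 9 members (Igf1, Igfbp6 and Igfbp7, all higher). Dcn was higher in the same lymphatic-like cells, at 2268 CPM in KO HFD, 651 in WT HFD and 477 in WT CD, and its part in those 3 ratios was not tested. Without doublets the log2 ratio of Igfbp7 in lymphatic-like cells turned to -0.013.

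In endothelial-like cells of blood vessels none of 9 members passed 1.5-fold between WT HFD and WT CD, against 19.3% of 8335 genes. Between KO HFD and WT HFD 2 of 9 passed, against 21.4% of 8402 genes. Igfbp5 was at 132 [109, 159] CPM in KO HFD and 43.0 [31.0, 58.1] in WT HFD (1.62 [1.10, 2.17]), but UMIs of it were found in 1.49%, 2.95% and 3.38% of these cells (WT CD, WT HFD, KO HFD), so that few cells carried them. Igf1, the other, was lower in KO HFD and rested on 11 UMIs there and 30 in WT HFD. It stood at 2.76% and 7.60% of its FAP level in these libraries, beside 6.13% and 3.98% for Dcn in the same cells, and the KO HFD value is read as background. Under cell-by-cell gating the Igfbp5 ratio turned to -0.58. The unnamed cluster led by Vwf and Plvap was not part of this class, and its levels are given under the other observations below.

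**Figure D5:**
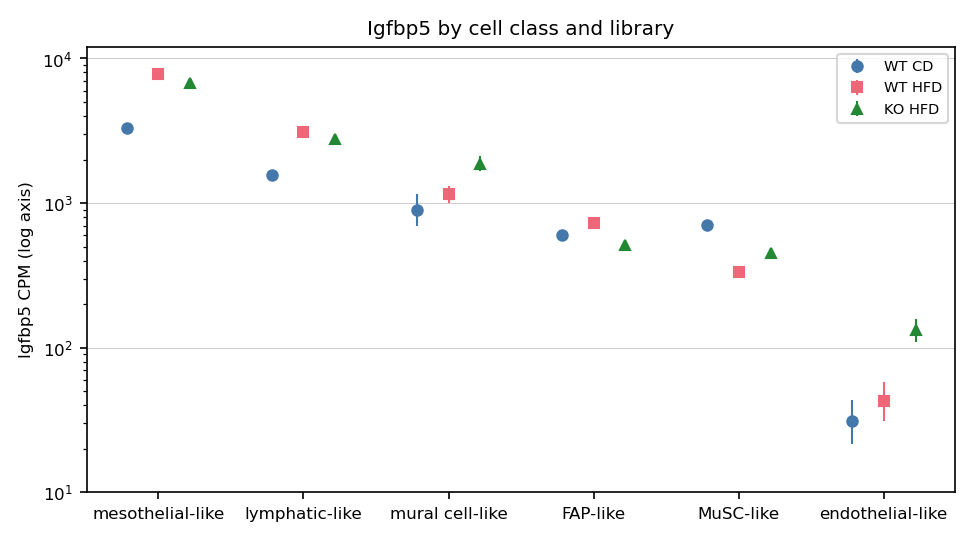
Igfbp5 level in CPM (vertical, logarithmic) in 6 cell classes, with 1 point per library and bars for the 95% counting interval. WT CD lies below both high-fat libraries in mesothelial-like and lymphatic-like cells and above both in MuSC-like cells.

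The wider IGF axis was described with a list of 34 genes of related ligands, receptors, adaptors, proteases and downstream kinases, of which 22 reached 10 CPM in FAP-like cells. Between WT HFD and WT CD 0 of 22 passed 1.5-fold in FAP-like cells, against 1.53% of all genes, and between KO HFD and WT HFD 1 of 22 did, against 0.84%, the gene Vtn of vitronectin (99.3 CPM in KO HFD and 64.0 in WT HFD, log2 ratio 0.63 [0.53, 0.74]). In MuSC-like cells 6 of 21 passed between WT HFD and WT CD, 3 higher and 3 lower, against 22.9% of all genes, so the count is near the background. Their values are given as a description. Socs2, an inhibitor of growth hormone signalling, was at 36.5 and 85.2 CPM (1.22 [0.80, 1.67]), Grb10, an adaptor that restrains insulin and IGF1 receptors, at 96.7 and 168 CPM (0.80 [0.52, 1.08]), and Irs1, a docking protein of these receptors, at 26.4 and 11.5 CPM (-1.21 [-2.07, -0.40]).

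Other genes of the axis had their own places. Htra3, a secreted serine protease related to proteases that cut binding proteins, averaged 1053 CPM in FAP-like cells over the libraries and 135 in MuSC-like cells, and Lrp1, a scavenger receptor, averaged 1055 and 89.6 CPM. Irs2 averaged 338 CPM in MuSC-like cells and 103 in FAP-like cells, and Vtn 758 CPM in mural-like cells. Pappa, the protease that cleaves IGFBP4, averaged 25.4 CPM in FAP-like cells and 27.2 in Schwann-like cells, where it ran from 7.50 to 50.1 CPM. Igfals and Igfbpl1 averaged under 1 CPM in every class in which the axis was described.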

How the data were processed

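Droplet-based 3′ single-cell libraries were made from pooled diaphragm cells, and the deposited counts are UMIs per gene and barcode, made by the authors with Cell Ranger (version 6.1.1 in the submitters' processing notes, 6.1.0 in the matrix header) on mm10, with no normalization. The members and gene lists were chosen with earlier results of these data known. All 12275 deposited barcodes were kept, and Scrublet at an expected rate of 0.06 called 1.26%, 1.09% and 1.33% of WT CD, WT HFD and KO HFD as doublets, which were kept. With scanpy 1.11.5, counts were scaled to 10000 per cell and logged, 2000 variable genes without the 44 IGF genes gave 30 principal components, and Leiden clustering (15 neighbours, resolution 1) gave 35 clusters. Naming of these clusters used marker lists. The list highest in mean log2 ratio applied where this was 1 or more and 3 or more markers were detected. A cluster more than 3 times shallower than the libraries, with none of that list among its 10 leading genes, was left unnamed. In all, 3 clusters with 432 cells stayed unnamed. FAP-like cells were clustered again (20 components, resolution 0.8). Their clusters were named for states where the highest mean log2 ratio was 0.5 or more, and the Sfrp4 Spon2 list held only 2 genes. Levels are sums of UMIs per class and library. Ratios carry exact conditional binomial intervals, levels exact Poisson and shares Clopper-Pearson intervals, all at 95%, and a count of 0 is given a limit of 3 counts. A fold of 1.5 among genes of at least 10 CPM in either library counts as a difference, and all genes give the background. With 1 library per group there is no test between groups. The named genes are the 10 members, Thbs1, the 34 axis genes, the 3 genes most alike in profile to a member, and genes that mark other cells. Ratios and intervals were tested on data simulated with counting error only. Such data cannot show whether the intervals are too narrow where UMIs sit in few cells. Alternatives were cell-by-cell gating, other clusterings, removal of doublets or poor cells, other scalings (edgeR 4.0.16 TMM factors among them), thinning and other folds.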

Additional observations from a re-analysis of the deposited data

Results flagged for a closer look

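Some members differed by 1.5-fold or more in opposite directions in different cell classes, with counting intervals that did not hold 0. With 1 library per group none of these differences between classes was tested. Between WT HFD and WT CD the log2 ratio of Igfbp3 was -1.23 in FAP-like cells and -0.89 in mesothelial-like cells but 1.15 in lymphatic-like cells, which rested on 16 and 75 UMIs. The log2 ratio of Igfbp5 was -1.07 in MuSC-like cells, 1.0 in lymphatic-like cells and 1.23 in mesothelial-like cells. That of Igfbp6 was 1.85 in MuSC-like cells, from 10 and 30 UMIs, and -1.01 in macrophage-like cells. In MuSC-like cells Igfbp6 is read as background, at 0.19% and 0.77% of its FAP level beside 0.515% and 0.79% for Dcn (WT CD, WT HFD). In macrophage-like cells Igfbp6 was at 4.84% and 2.70%, beside 3.45% and 3.36% for Dcn, and its source was not tested. Between KO HFD and WT HFD the log2 ratio of Igf1 was 1.47 in lymphatic-like cells and -1.26 in endothelial-like cells, from 31 and 56 and from 30 and 11 UMIs of WT HFD and KO HFD, and the endothelial-like level in KO HFD was 2.76% of that in FAP-like cells, below the 6.13% of Dcn. The log2 ratio of Igfbp5 was 1.62 in endothelial-like cells and -1.27 in macrophage-like cells. The former turned to -0.58 under cell-by-cell gating, and the macrophage-like level was 6.15% and 3.6% of the FAP level in WT HFD and KO HFD, beside 3.36% and 2.81% for Dcn.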

How the results depend on the processing

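Igfbp3 in FAP-like cells was lower in WT HFD than in WT CD under all 12 alternatives, with log2 ratios from -1.82 to -0.98. The count of 1 member past 1.5-fold became 2 at the lower fold tried (Igf2r was added), where 9.73% of all genes passed. Between KO HFD and WT HFD the count of 0 in FAP-like cells became 2 with cells thinned, 1 without the 2 clusters led by tenocyte genes (an alternative added after the data were seen) and 3 at the lower fold, where 5.73% of all genes passed. In MuSC-like cells it was 5 or 4 under every alternative for WT HFD against WT CD, although Igfbp4 dropped out under 2 clusterings, and for KO HFD against WT HFD the 0 became 3 under gating, 1 without doublets and 1 in cells free of Dcn, Col1a1, Lyz2 and Myog (also added after the data were seen). In endothelial-like cells the 0 for WT HFD against WT CD became 1 under 3 clusterings, 2 under gating, per-cell means and thinning, and 3 without doublets, and the 2 for KO HFD against WT HFD became 1 under gating and without doublets. The macrophage-like count of 3 became 6 under gating, the lymphatic-like count of 2 became 4 under gating, per-cell means and TMM factors and 5 with cells thinned, and the mesothelial-like count of 2 for KO HFD became 4 with cells thinned. The 2 members highest in FAP-like cells became 1 under gating, resolution 1.5, per-cell means and thinning, where Igf1 was still highest in FAP-like cells in all but gating. State levels of Igf1 and of Igfbp3 to Igfbp7 were recomputed with k-means (k = 5) and with states gated cell by cell. Most fell outside the counting interval of the main level. In the Sfrp4 Spon2 state 12 levels fell outside, and in the Agt Ptx3 Has1 state 11 fell outside and 1 inside. In the Dpp4 Sema3c and Fmod Sfrp2 Tnmd states 10 fell outside and 2 inside. Among ratios past 1.5-fold, the sign reversed for Igfbp6 in MuSC-like cells (-0.27 at resolution 1.5 and -0.45 without doublets, WT HFD over WT CD) and in macrophage-like cells (0.88 under gating), for Igfbp5 in endothelial-like cells (-0.58 under gating, KO HFD over WT HFD) and for Igfbp7 in lymphatic-like cells (-0.013 without doublets, KO HFD over WT HFD). Smaller ratios of WT HFD over WT CD in FAP-like cells also changed sign: Igfbp7 in 3 of 12 alternatives (up to 0.018), Igf1 in 1 (0.032, states weighted alike) and Igfbp4 in 1 (-0.0046, TMM factors). Apart from the added tenocyte-cluster cells in MuSC-like cells, the cause was not tested. No paired analysis was possible because each group is 1 library. Libraries were not left out for the same reason, and differences between mice cannot be told apart from those between groups.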

Other observations

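Schwann-like cells, the glia of the intramuscular nerves, also carried binding protein genes. Igfbp5 was at 450, 415 and 752 CPM in their 33, 31 and 40 cells of WT CD, WT HFD and KO HFD, Igfbp7 at 427, 758 and 675 CPM and Igf1r at 135, 64.4 and 101 CPM. A cluster led by Vwf and Plvap, genes of venous endothelium, was left unnamed and out of the endothelial-like class, although all 5 endothelial markers were detected in it, because its median of 1338.5 UMIs was under the depth limit and none of those markers was among its 10 leading genes. It held 43, 71 and 54 cells and had 2277, 1158 and 1931 CPM of Igfbp7 and 28.2, 160 and 269 CPM of Igfbp5, from 3, 40 and 53 UMIs.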
